A study of Mus musculus with 6 samples.

Results

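The 42 genes described here encode the proteins that copy DNA in S phase. They are the subunits that mark and license replication origins, the MCM2-7 helicase and its activators, primase, the sliding clamp and its loader, the factors that join the lagging strand, the enzymes that supply nucleotides, the G1/S regulators, and the factors that restore chromatin behind the fork. The members are given by gene name, with earlier results of these data known, and no measured value enters the rule. All 42 were found among the 26586 genes of the count table. All 42 also had enough counts to be among the 16896 genes tested.

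The libraries come from mice that carry Axin2rtTA and tetOH2BJGFP, in which the Axin2 promoter drives the rtTA activator and doxycycline then switches on a fusion of histone H2B and GFP. Ovaries were removed at 4 weeks of age, doxycycline followed after 2 weeks of rest, and 4 days later the uteri were taken from the mice, then 6 weeks old. Cells of the endometrial epithelium were sorted by fluorescence into a GFP+ fraction, named Axin2+, and a GFP- fraction, named Axin2-, with 3 libraries each, numbered by mouse. Both fractions thus share the transgenes, the ovariectomy and the doxycycline. Although the numbers stand for mice, the labels also speak of pooling, so the p-values may measure only the spread between libraries. Total RNA was depleted of ribosomal RNA, and each library held 49714402 to 59597315 gene counts.

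An origin is licensed in G1 when the origin recognition complex, CDC6 and CDT1 load MCM2-7 rings onto DNA. In S phase the ring is activated by CDC45 and the GINS complex, and polymerases follow the opened fork, tethered by the PCNA ring. Many of these genes are classical targets of E2F transcription factors, and in the uterus their transcripts are best known for rising when oestrogen drives the epithelium into the cell cycle; ovariectomy removes the main source of that hormone.

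The 2 names follow the reporter, not the transcript. Axin2 itself stood at 369, 357 and 356 CPM (counts scaled to a common library size with TMM factors) in the Axin2- libraries of mice 1, 2 and 3, and at 165, 243 and 299 CPM in the Axin2+ libraries. It was thus lower in the GFP+ library of each mouse, by 0.61 ± 0.21 on the log2 scale (SE), with an adjusted p of 0.0710 by edgeR's quasi-likelihood test. It passed as lower in 2 of 16 alternatives, DESeq2 (adjusted p 0.0260) and the fit without the Axin2+ library of mouse 3 (0.0290). The labels call both fractions epithelial. The 14 general epithelial markers, among them Krt8 and Krt18, summed to 240 to 347 CPM in the Axin2- libraries and to 2677 to 3865 CPM in the Axin2+ libraries. Smooth muscle and pericyte markers (12 genes, led by Myh11 and Des) summed to 2684 to 6841 CPM in Axin2- and 297 to 523 CPM in Axin2+, and 11 stromal fibroblast markers to 11390 to 22689 CPM and 3576 to 4994 CPM. The 12 macrophage markers ran from 72.9 to 404 CPM in Axin2- and from 784 to 4403 CPM in Axin2+. The fractions therefore differ in several cell types at once, and every difference below is between these sorted fractions. In bulk RNA, a larger share of replicating cells and more transcript per replicating cell cannot be told apart.

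Of the 42 replication genes, 11 rose in the Axin2+ fraction and 0 fell (edgeR quasi-likelihood test, Benjamini-Hochberg adjusted p under 0.05 over all genes tested). That is 26.2% of the genes, where 14.5% of all genes tested rose and 12.8% fell. DESeq2 called 13 of the 42 (31.0%) higher, where it called 18.4% of all genes higher, and 0 lower. At an unadjusted p under 0.05, 17 of the 42 (40.5%) differed, about the share of all genes that did so (40.6%); all 17 were higher, as were 20.8% of all genes. The log2 fold change was positive for 36 of 42 (85.7%, against 49.5% of all genes), and its median was 0.58, against -0.01 over all genes. Within mice 1, 2 and 3 the median difference was 0.52, 0.59 and 0.52. The 3 Axin2+ values lay above the 3 Axin2- values without overlap for 24 genes, or 57.1%, where 23.9% of all genes did so, and they lay below for 0, where 23.2% of all genes did so. With the mouse as a block, which made 12.3% of all genes higher, 11 replication genes again passed, with Fen1 lost and Chaf1b gained. With only the library size as scaling, the median of all genes moved to 0.16 and that of the replication genes to 0.76. Other scaling factors shift every log2 fold change by about the same amount. The distance between the 2 medians (0.60 against 0.59) could therefore hardly change and tests nothing. Library size alone also made 67.4% of all calls higher ones, against 53.0% with TMM.

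Together the 42 transcripts took 0.0677, 0.0653 and 0.0641% of the counts in the Axin2- libraries and 0.0972, 0.0997 and 0.102% in the Axin2+ libraries. Their summed level was 694, 680 and 716 CPM in Axin2- and 928, 946 and 940 CPM in Axin2+, a ratio of 1.35. Within a fraction these sums were close to each other, since the highest was 1.05 times the lowest in Axin2- and 1.02 times in Axin2+.

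**Figure D1:**
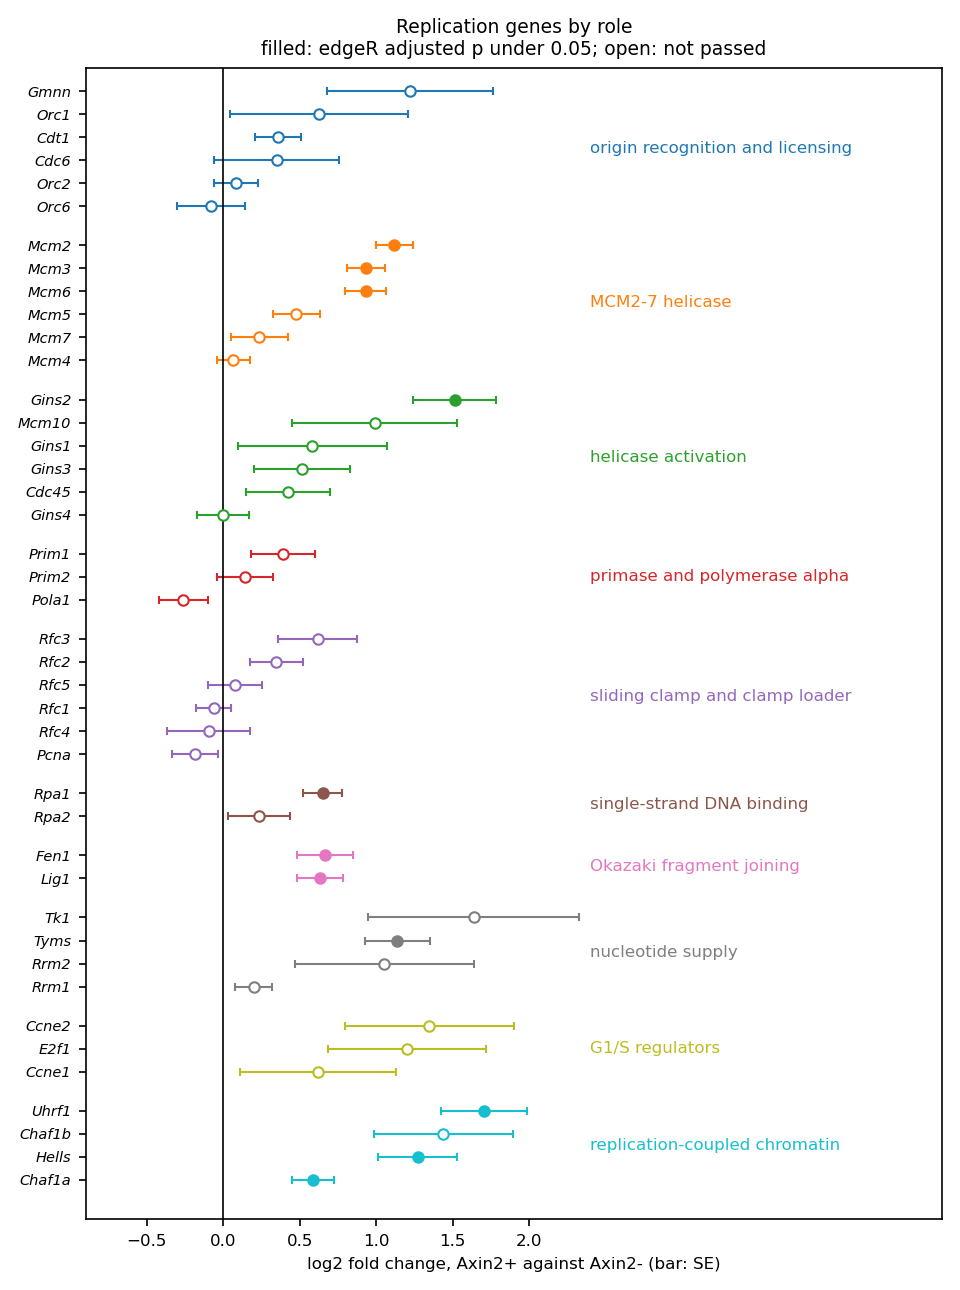
Log2 fold change of each of the 42 replication genes (x axis, Axin2+ against Axin2-, bar: SE), grouped by role; filled points passed edgeR's test at an adjusted p under 0.05. The 11 filled points all lie to the right of 0 and 6 open points, Orc6, Gins4, Pola1, Rfc1, Rfc4 and Pcna, lie to its left.

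Short E2F-type sequences were found more often in the promoters of these genes than in all promoters of the table, and windows of 3 genes that rose are printed to show what such a match looks like. In the RefSeq promoter table of GRCm38.p6 (250 bases before to 50 after each start) 34 of the 42 genes had an entry. The words TTTCGCGC, TTTGGCGC, TTTCCCGC and TTTGGCGG were searched on both strands, where one match may overlap another. At least 1 was present for 15 of 34 genes, or 44.1%, against 2.70% of the 27025 genes in the table and 4.58% of the 11152 tested genes with an entry. Among genes with an entry, 7 of the 10 that rose and 8 of the 24 that did not pass held a match. A gene was counted if any of its entries matched. The 10 that rose had 14 entries and the 24 others 26, so the genes that rose had more sequence searched per gene. Uhrf1 and Lig1 have several entries and matched in only 1 each. The CCAAT box, also on both strands, was present for 64.7% of the replication genes and 42.1% of the tested genes, for 6 of the 10 that rose and 16 of the 24 that did not pass. A match is a string of letters and not a measured binding site, and where none was found, as for Mcm2, Tyms and Fen1, the letters are only missing from this window. Mcm6, Uhrf1 and Chaf1a rose, and their matches lie before the start outside annotated exons. Their windows are chr1:128359713-128359822 on the minus strand for Mcm6, chr17:56304063-56304167 on the plus strand for Uhrf1 (before the second of its 2 annotated starts), and chr17:56040302-56040411 on the plus strand for Chaf1a, each written 5′ to 3′ along the gene with the matches in capitals.
Mcm6: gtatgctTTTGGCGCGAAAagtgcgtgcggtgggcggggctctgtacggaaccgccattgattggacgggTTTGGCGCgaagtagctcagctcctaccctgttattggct
Uhrf1: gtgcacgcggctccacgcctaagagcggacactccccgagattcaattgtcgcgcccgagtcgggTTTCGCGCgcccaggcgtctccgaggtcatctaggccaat
Chaf1a: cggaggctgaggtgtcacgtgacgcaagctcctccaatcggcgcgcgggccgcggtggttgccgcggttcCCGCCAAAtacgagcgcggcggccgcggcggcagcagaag
In Mcm6 the matches begin 110, 106 and 47 bases before the start, and the first pair overlap, TTTGGCGC on the strand shown and TTTCGCGC on the other. The Uhrf1 match begins 185 bases before its start. The Chaf1a match begins 44 bases before the start and is TTTGGCGG on the opposite strand. Mcm3, Lig1, Rpa1 and Hells also held a match, which lay after the start or within an annotated exon.

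Of the 6 origin recognition and licensing genes 0 passed the test (edgeR; 1 had an unadjusted p under 0.05, and DESeq2 called 0). The 2 with the smallest p were Cdt1, the loader of MCM2-7, and Gmnn, whose product geminin binds CDT1 and blocks loading again in S phase. Cdt1 stood at 12.3, 12.3 and 11.6 CPM in Axin2- and 15.9, 14.7 and 15.7 CPM in Axin2+, a log2 fold change of 0.36 ± 0.15 (SE; edgeR adjusted p 0.118.) For Gmnn the values were 2.80, 0.682 and 2.08 CPM against 5.61, 4.27 and 3.09 CPM, with a log2 fold change of 1.22 ± 0.54 and an adjusted p of 0.137. In both genes every Axin2+ value was above every Axin2- value, and the lowest Gmnn value was that of the Axin2- library of mouse 2. Gmnn passed under none of the 16 alternatives. The origin recognition subunits Orc1, Orc2 and Orc6 had log2 fold changes of 0.62, 0.08 and -0.08, and Cdc6, the other loading factor, one of 0.35, all with overlapping groups; the sign of Orc6 turned with library size as the only scaling (0.093).

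The MCM2-7 helicase, the ring that unwinds the duplex, was split. Mcm2, Mcm3 and Mcm6 rose, while Mcm5, Mcm7 and Mcm4 did not pass. Mcm2 (chromosome 6, 88883474 to 88898780 of GRCm38, minus strand) had the smallest p of all 42 genes. Its level was 22.7, 24.9 and 22.2 CPM in the Axin2- libraries and 51.9, 52.0 and 47.8 CPM in the Axin2+ libraries, a log2 fold change of 1.12 ± 0.12 (SE; edgeR adjusted p 0.0010.) Every Axin2+ library was thus far above every Axin2- library, and libraries of a fraction differed little. Mcm3 (chromosome 1, 20802968 to 20820312, minus strand) stood at 29.9, 28.2 and 27.1 CPM against 56.6, 57.6 and 48.5 CPM, and rose by 0.93 ± 0.13 on the log2 scale (adjusted p 0.0024). Mcm6, whose promoter is printed above (chromosome 1, 128331590 to 128359664, minus strand), stood at 40.7, 34.6 and 41.4 CPM against 76.9, 79.8 and 65.7 CPM, with a log2 fold change of 0.93 ± 0.13 (adjusted p 0.0030). In the last 2 genes the Axin2+ library of mouse 3 was the lowest of its fraction and still above all Axin2- libraries.

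Mcm5 lay just outside the threshold. It was at 19.2, 18.7 and 19.0 CPM in Axin2- and at 22.7, 26.5 and 30.2 CPM in Axin2+, without overlap, with a log2 fold change of 0.48 ± 0.15 (SE) and an edgeR adjusted p of 0.0553. Mcm7 had a log2 fold change of 0.24 ± 0.19, and its groups overlapped. Mcm4 was at 47.1, 45.4 and 43.1 CPM against 46.2, 46.7 and 48.9 CPM, a log2 fold change of 0.06 ± 0.11 with an adjusted p of 0.699. Mcm4 and Mcm7 passed under none of the 16 alternatives and Mcm5 under 3, whereas Mcm2, Mcm3 and Mcm6 passed under all 16.

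Because the 6 subunits form 1 ring, their transcripts were also set against each other within each library, as shares of the summed CPM per kb of the principal transcript, which needs no scaling between libraries. Mcm2 made up 10.98 ± 1.13% of the sum in Axin2- and 15.4 ± 0.833% in Axin2+ (SD, n = 3 each), and Mcm6 21.1 ± 1.25% and 26.2 ± 2.15%. Mcm3 went from 14.9 ± 0.993% to 18.4 ± 1.47%. On the other side Mcm4 made up 19.98 ± 1.39% in Axin2- and 13.6 ± 0.915% in Axin2+, and Mcm7 24.1 ± 2.84% and 18.4 ± 3.12%. The 3 values of each fraction did not overlap for these 5 genes, which gives a two-sided exact permutation p of 0.1, the smallest that 3 against 3 allows, and 0.167 after Benjamini-Hochberg adjustment over the 15 subunits compared in this way. For Mcm5 the shares were 8.90 ± 0.288% and 8.05 ± 1.23% and overlapped. The design could not take such a comparison under 0.05. Shares of 1 sum also depend on each other, so these 5 genes are not separate results. A share can fall without a fall in level: Mcm4 and Mcm7 had log2 fold changes of 0.06 and 0.24.

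**Figure D2:**
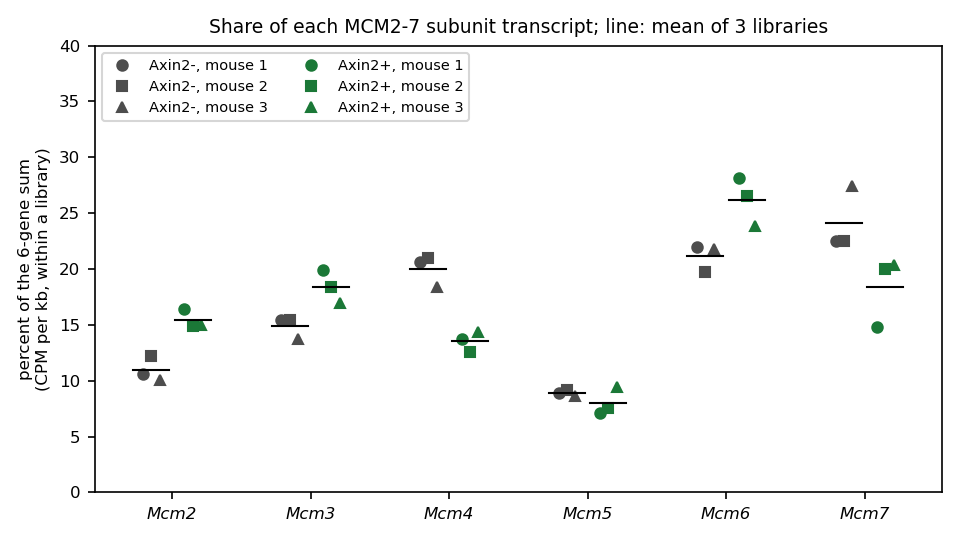
Share of each MCM2-7 subunit in the summed transcript level of the 6 genes (y axis, percent of CPM per kb within a library) for the 6 libraries, with a line at the mean of 3. The Axin2+ points of Mcm2, Mcm3 and Mcm6 lie above the Axin2- points, those of Mcm4 and Mcm7 lie below, and those of Mcm5 overlap.

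Among the 6 helicase activation genes, Gins2 rose and the other 5 did not pass. GINS is a ring of 4 subunits that joins CDC45 and MCM2-7 in the active helicase. Gins2 (chromosome 8, 120578633 to 120589304, minus strand) stood at 2.16, 1.96 and 2.53 CPM in Axin2- and 6.38, 5.66 and 6.92 CPM in Axin2+, a log2 fold change of 1.51 ± 0.27 (SE; edgeR adjusted p 0.0074.) The fractions were well apart at this low level. Gins2 shares 2758 annotated exon bases with Gse1, and since the strand setting is not stated, reads of one could be counted for the other; Gse1 itself had a log2 fold change of -0.33 with an adjusted p of 0.244. Mcm10, which helps to start unwinding, was at 4.08, 0.839 and 2.14 CPM against 4.43, 4.44 and 5.14 CPM, a log2 fold change of 0.99 ± 0.54 (adjusted p 0.217), with the lowest value again in the Axin2- library of mouse 2. Cdc45 had a log2 fold change of 0.42, Gins1 one of 0.58 and Gins3 one of 0.51. Gins4, with a log2 fold change of -0.0016 whose sign turned with library size as the only scaling (0.17), was at 17.7, 22.4 and 21.1 CPM against 17.5, 22.7 and 20.9 CPM. As a share of the 4 GINS transcripts per kb, Gins4 went from 80.4 ± 4.98% to 71.0 ± 2.23% and Gins2 from 3.03 ± 0.386% to 7.71 ± 1.24% (SD, n = 3 each), both without overlap (exact permutation p 0.1). These shares depend on each other, and that of Gins4 fell without a change in its level.

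The 3 genes of primase and polymerase alpha, which lay the RNA-DNA primers, gave 0 calls (edgeR; 0 had an unadjusted p under 0.05, and DESeq2 called 0). Prim1, the catalytic primase subunit, was at 6.77, 9.31 and 9.27 CPM in Axin2- and 10.9, 10.1 and 12.1 CPM in Axin2+, a log2 fold change of 0.39 ± 0.21 with an edgeR adjusted p of 0.214. Pola1, the polymerase subunit, was at 34.6, 42.3 and 50.5 CPM against 34.8, 35.2 and 36.3 CPM, a log2 fold change of -0.26 ± 0.16 (adjusted p 0.263). The Prim1 groups did not overlap, while the Pola1 groups did. Prim2, the large primase subunit, had a log2 fold change of 0.14.

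The sliding clamp and its loader also held 0 calls among 6 genes (edgeR; 1 had an unadjusted p under 0.05, and DESeq2 called 0). Rfc3 and Rfc2, both loader subunits, had the smallest p. Rfc3 was at 4.88, 5.02 and 4.39 CPM in Axin2- and 6.26, 6.46 and 9.18 CPM in Axin2+, a log2 fold change of 0.62 ± 0.26 with an adjusted p of 0.116. Rfc2 was at 14.3, 18.5 and 19.7 CPM against 23.8, 19.99 and 22.8 CPM, a log2 fold change of 0.35 ± 0.17 (adjusted p 0.184). Neither gene had overlapping groups. As a share of the 5 loader transcripts per kb, taken from the same values, Rfc3 went from 10.8 ± 1.09% to 15.4 ± 2.35%. Rfc2 went from 10.3 ± 1.22% to 12.5 ± 1.07%. The exact permutation p was 0.1 each, the smallest possible here, and 0.167 after Benjamini-Hochberg adjustment. These shares depend on each other and are not separate results. Rfc1, Rfc4 and Rfc5 had log2 fold changes of -0.06, -0.10 and 0.08, of which the first pair turned positive with library size as the only scaling (0.11 and 0.070). Pcna, the clamp itself and a common marker of proliferating cells, was at 46.9, 51.9 and 39.4 CPM in Axin2- and 45.7, 37.6 and 38.3 CPM in Axin2+, lower in the Axin2+ library of each mouse. Its log2 fold change was -0.18 ± 0.15 with an adjusted p of 0.404, and its groups overlapped. Pcna has annotated pseudogenes that could take or give reads, as has Tyms.

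Rpa1, the large subunit of the protein that coats single-stranded DNA, rose. It stood at 41.7, 40.7 and 33.2 CPM in Axin2- and 58.3, 60.5 and 62.4 CPM in Axin2+, a log2 fold change of 0.65 ± 0.13 (SE; edgeR adjusted p 0.0106) (chromosome 11, 75298166 to 75348324, minus strand). Rpa2, its partner, was at 7.58, 9.86 and 10.2 CPM against 9.82, 11.7 and 10.9 CPM, a log2 fold change of 0.23 ± 0.20 (adjusted p 0.438). Rpa2 was higher in the Axin2+ library of each mouse, but the groups overlapped.

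Both genes that finish the lagging strand rose. Fen1 trims the flap at the end of each Okazaki fragment, and Lig1 seals the nick. Fen1 (chromosome 19, 10199132 to 10204169, minus strand) was at 12.5, 14.8 and 9.95 CPM in Axin2- and 19.8, 19.1 and 20.1 CPM in Axin2+, a log2 fold change of 0.66 ± 0.18 with an edgeR adjusted p of 0.0353. Lig1 (chromosome 7, 13277283 to 13311433, plus strand) was at 42.1, 37.8 and 52.5 CPM against 64.8, 73.4 and 66.9 CPM, a log2 fold change of 0.63 ± 0.15 (adjusted p 0.0199). The Axin2+ libraries lay close together and above all Axin2- libraries in both genes. With the mouse as a block Fen1 did not pass (adjusted p 0.0599), nor did it without any single library other than the Axin2- library of mouse 2 (adjusted p 0.0699 to 0.102); that for Lig1 was lost without the Axin2- library of mouse 1 (0.0579) or the Axin2+ library of mouse 2 (0.0805).

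Of the 4 nucleotide supply genes Tyms rose. Tyms, thymidylate synthase, makes the thymidine nucleotide needed for DNA alone, and stood at 7.29, 5.47 and 5.27 CPM in Axin2- and 12.6, 13.3 and 13.8 CPM in Axin2+ (chromosome 5, 30058202 to 30073617, minus strand). Its log2 fold change was 1.14 ± 0.21 with an edgeR adjusted p of 0.0081. Tk1, the S phase thymidine kinase, had a larger fold and a wider spread, at 2.31, 0.262 and 1.77 CPM against 4.93, 4.02 and 4.54 CPM, with a log2 fold change of 1.64 ± 0.69 (adjusted p 0.121). The Axin2+ libraries were again above all Axin2- libraries, and the Axin2- library of mouse 2 stood far below the other two. Rrm1 and Rrm2, the subunits of ribonucleotide reductase, had log2 fold changes of 0.20 and 1.05, and neither passed.

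The 3 G1/S regulators were low and gave 0 calls (edgeR; 1 had an unadjusted p under 0.05, and DESeq2 called 0). E2f1, the transcription factor that opens the S phase programme, was at 3.25, 1.08 and 4.18 CPM in Axin2- and 7.78, 7.50 and 4.26 CPM in Axin2+, a log2 fold change of 1.20 ± 0.52 with an edgeR adjusted p of 0.127. Ccne2, cyclin E2, was at 1.79, 0.419 and 0.988 CPM against 2.92, 2.57 and 2.64 CPM, a log2 fold change of 1.35 ± 0.55 (adjusted p 0.112). E2f1 barely separated, since the Axin2+ library of mouse 3 was level with the Axin2- library of the same mouse. Ccne1, cyclin E1, had a log2 fold change of 0.62 with overlapping groups.

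Among the chromatin factors of the fork, Uhrf1, Hells and Chaf1a rose. Uhrf1, which brings the maintenance methyltransferase to newly copied DNA, had the largest log2 fold change of the 42 genes. It stood at 12.2, 5.71 and 8.01 CPM in Axin2- and 27.0, 26.7 and 30.8 CPM in Axin2+, a log2 fold change of 1.71 ± 0.28 (SE; edgeR adjusted p 0.0051) (chromosome 17, 56303321 to 56323486, plus strand). Every Axin2+ value was far above the highest Axin2- value. Hells, a chromatin remodeller also linked to DNA methylation (chromosome 19, 38930915 to 38971051, plus strand), was at 11.9, 6.22 and 10.03 CPM against 22.9, 19.9 and 25.2 CPM, a log2 fold change of 1.27 ± 0.26 (adjusted p 0.0115). For Uhrf1 and Hells the Axin2- library of mouse 2 was the lowest of the 6.

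Chaf1a and Chaf1b encode the large and middle subunits of CAF-1, which places histones on new DNA. Chaf1a (chromosome 17, 56040439 to 56072289, plus strand) was at 12.8, 13.4 and 13.8 CPM in Axin2- and 20.3, 19.5 and 20.3 CPM in Axin2+, a log2 fold change of 0.59 ± 0.14 with an edgeR adjusted p of 0.0205. It had a small fold and a small spread. Its call was lost without the Axin2- library of mouse 1 or any single Axin2+ library (adjusted p 0.0543 to 0.0758), and it shares 4648 exon bases with Ubxn6, whose log2 fold change was -0.05. Chaf1b was at 2.97, 1.07 and 1.63 CPM against 5.24, 3.76 and 6.37 CPM, a log2 fold change of 1.44 ± 0.45, and lay just outside the threshold at 0.0527; with the mouse as a block it passed at 0.0456.

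**Figure D3:**
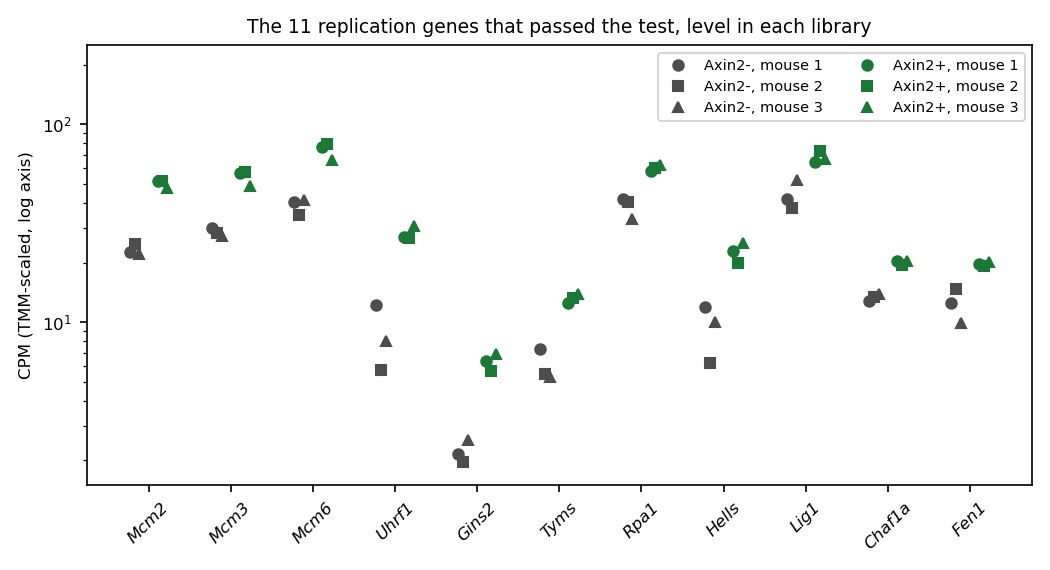
Level of the 11 replication genes that passed the test in each of the 6 libraries (y axis, CPM scaled with TMM factors, log axis; grey: Axin2-, green: Axin2+, shape: mouse). For each gene the 3 green points lie above the 3 grey points.

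Fold changes were less precise among genes of low level. The 19 genes with a mean under 10 CPM had a median log2 fold change of 0.62 and a median SE of 0.45, and 2 of them, Gins2 and Tyms, passed. The 23 genes at 10 CPM or more had a median log2 fold change of 0.35 and a median SE of 0.15, and 9 passed. A log2 fold change of at least 1 was seen for 8 of the low genes and 3 of the others. The coefficient of variation of the low genes was 45.1% in Axin2- and 22.3% in Axin2+ (medians over genes), against 9.68% and 8.07% for the others. With such errors the low genes that missed the threshold cannot be called level.

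One library was often the lowest. The Axin2- library of mouse 2 was the lowest of the 6 for 21 of the 42 replication genes, that is 14 of the 19 under 10 CPM and 7 of the 23 others, for 14 of the 16 mitosis genes and for 12 of the 12 macrophage markers. It was the lowest for only 2 of the 14 general epithelial markers, where the Axin2- library of mouse 1 was lowest for 12. The share over all genes was not counted. Without the Axin2- library of mouse 2 the same 11 genes passed, and the median log2 fold change was 0.46. Without the Axin2+ library of mouse 2, the setting with the fewest calls, 8 genes passed, all of them among the 11, while the calls over all genes went from 2447 to 1491 higher and from 2171 to 1053 lower.

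**Figure D4:**
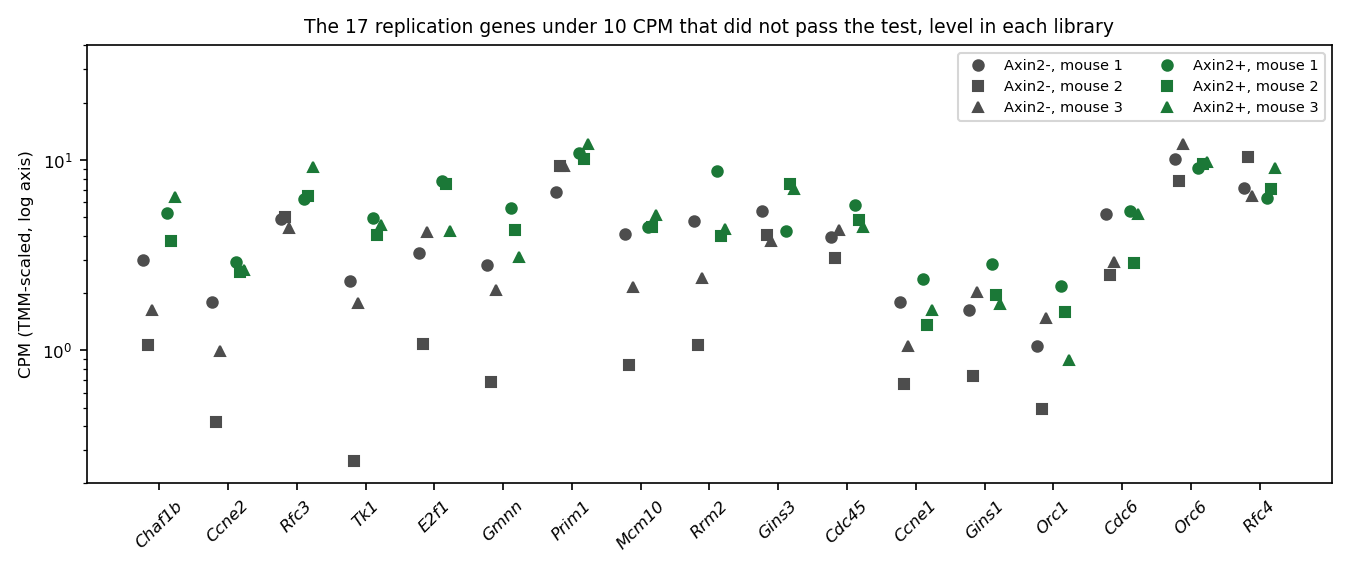
Level in each library of the 17 replication genes with a mean under 10 CPM that did not pass the test, by p (y axis, CPM scaled with TMM factors, log axis; grey: Axin2-, green: Axin2+, shape: mouse). The grey square, the Axin2- library of mouse 2, is the lowest of the 6 points for 13 of the 17 genes, down to 0.262 CPM for Tk1, and not for Rfc3, Prim1, Gins3 and Rfc4.

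Levels of different genes were compared per kb of the principal GENCODE M21 transcript, averaged over the 6 libraries. Pcna was the highest of the 42 at 28.5 CPM per kb, followed by Mcm6 at 19.4 and Lig1 at 17.7 CPM per kb. Orc1 was the lowest, at 0.424 CPM per kb. Pcna and Orc1 kept the first and last rank when the length of all exons was used, whereas Mcm6 moved to rank 6 and Gins4 from 6 to 2. The order also differed between fractions: in Axin2- Rfc1 (16.3), Mcm7 (15.3), Gins4 (15.1) and Lig1 (13.9 CPM per kb) stood above Mcm6. In the Axin2+ libraries Mcm6 reached 25.5 ± 2.57 CPM per kb and Pcna 26.7 ± 2.96 CPM per kb (SD, n = 3 each), which do not differ beyond their spread, whereas in Axin2- they stood at 13.4 ± 1.27 and 30.3 ± 4.12 CPM per kb.

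A further 76 genes of the replication pathway, listed by role, moved less uniformly. Of them 10 rose (13.2%, close to the 14.5% of all genes) and 2 fell (2.63%, where 12.8% of all genes fell), their median log2 fold change was 0.16, and 52 of 76 (68.4%) were positive. The count of higher calls was 6 without the Axin2+ library of mouse 1 and 5 without that of mouse 2. Lower calls numbered 1 without the Axin2- library of mouse 1 or the Axin2+ library of mouse 3 and 0 without the Axin2- library of mouse 3 or the Axin2+ library of mouse 2. Of 13 licensing and firing genes, 0 rose and Cdc7 fell (edgeR; 2 had an unadjusted p under 0.05, and DESeq2 called 1 higher and 1 lower). Cdc7, the kinase that fires origins by phosphorylating MCM subunits, was at 8.92, 10.3 and 14.1 CPM in Axin2- and 3.73, 4.85 and 5.81 CPM in Axin2+, lower in all 3 mice and without overlap. Its log2 fold change was -1.21 ± 0.28 with an edgeR adjusted p of 0.0186, and its call was lost without the Axin2- library of mouse 3 (0.0610) or the Axin2+ library of mouse 2 (0.0673).

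Of 17 other polymerase and strand processing genes, 3 rose. Top2a, the topoisomerase that untangles sister chromatids, was at 18.1, 4.77 and 15.5 CPM in Axin2- and 64.5, 54.2 and 55.8 CPM in Axin2+, a log2 fold change of 2.18 ± 0.45 (edgeR adjusted p 0.0127). Pole, the leading strand polymerase, rose by 0.70 on the log2 scale and Pold3, a subunit of the lagging strand polymerase, by 0.40. Of 10 genes of fork protection, 0 passed in either direction (edgeR; 0 had an unadjusted p under 0.05, and DESeq2 called 0 higher and 0 lower). Among 10 other nucleotide supply genes, Shmt1, Tk2 and Dctpp1 rose. Shmt1, which provides the one-carbon unit for thymidylate, was at 5.52, 7.62 and 6.63 CPM against 16.0, 20.8 and 21.8 CPM, a log2 fold change of 1.57 ± 0.21 (adjusted p 0.0023). The folds of Tk2, the mitochondrial thymidine kinase, and Dctpp1, which removes altered cytidine nucleotides, were 0.53 and 0.89 on that scale. Pole, Pold3, Tk2 and Dctpp1 had adjusted p of 0.0351 to 0.0449 and did not pass with the mouse as a block (0.0735 to 0.0802). Pold3 and Dctpp1 also missed the threshold with upper quartile scaling (0.0635 and 0.0554) and when low counts were kept (0.0584 and 0.0581). With 1 library left out, Pole and Tk2 passed only without the Axin2+ library of mouse 3 (adjusted p 0.0524 to 0.114 and 0.0538 to 0.142 otherwise), Pold3 only without the Axin2- library of mouse 3 (0.0759 to 0.135 otherwise), and Dctpp1 in no such fit (0.0618 to 0.152).

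Of 17 other G1/S regulators, E2f3, Rbl1 and Ccna2 rose (edgeR). E2f3, an activating E2F factor, was at 5.11, 2.83 and 3.71 CPM in Axin2- and 12.7, 12.9 and 14.0 CPM in Axin2+, a log2 fold change of 1.76 ± 0.27 with an edgeR adjusted p of 0.0038. Rbl1, the pocket protein p107 that restrains E2F factors, had a log2 fold change of 0.69 (adjusted p 0.0122), and Ccna2, the S phase cyclin A2, one of 1.57 (0.0237), whose call was lost without the Axin2+ library of mouse 2 (0.0753). Of 9 other chromatin genes, Cdca7 rose and Nasp fell. Cdca7, the partner of HELLS, was at 16.99, 18.0 and 12.9 CPM against 39.0, 62.2 and 51.9 CPM, a log2 fold change of 1.68 ± 0.22 (adjusted p 0.0020), and Hells and Cdca7 thus both stood higher in all 3 mice. Nasp, a histone chaperone, had a log2 fold change of -0.57 (adjusted p 0.0296); it did not pass without the Axin2- library of mouse 1 or 3 or the Axin2+ library of mouse 2 or 3 (0.0757 to 0.111).

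Mitosis genes were measured beside the replication genes. Mki67, the Ki-67 antigen of cycling cells, was at 54.8, 8.79 and 46.3 CPM in Axin2- and 136, 115 and 132 CPM in Axin2+, a log2 fold change of 1.80 ± 0.58 with an edgeR adjusted p of 0.0568. Under the mouse block it passed (0.0442), as it did in 5 of 16 alternatives in all, among them DESeq2 (0.0031) and the fit without the Axin2- library of mouse 2 (1.34 on the log2 scale, adjusted p 0.0025). The 16 mitosis genes all had a positive log2 fold change, with a median of 1.13, and summed to 134, 44.9 and 115 CPM in Axin2- and 305, 266 and 291 CPM in Axin2+. Of them 6 passed, and 2 to 7 did when a library was left out: 2 without the Axin2+ library of mouse 1 or 2, 3 without the Axin2- library of mouse 3, and 4 without the Axin2+ library of mouse 3. With other scalings, filters, tools or the block, 4 to 11 of the mitosis genes passed. Of 11 quiescence and arrest genes 8 had a negative log2 fold change, and 4 fell; the count was 2 without the Axin2- library of mouse 3 or the Axin2+ library of mouse 2, and their median was -0.59.

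Markers of several cell types moved with the same comparison. The epithelial list was higher in Axin2+ for 14 of 14 genes without overlap, the macrophage list for 11 of 12 and the endothelial list for 7 of 10, with Cdh5 below. Of all genes 23.9% lay above and 23.2% below without overlap. By edgeR's test 14, 11 and 7 genes of these lists passed as higher in turn. With 1 library left out the epithelial count stayed at 14, while the macrophage count was 1 to 11 and the endothelial count 3 to 7. The endothelial sums were 200 to 244 CPM in Axin2- and 255 to 467 CPM in Axin2+. Of these sums Cdh5 made up 98.9 to 169 CPM in Axin2- and 55.1 to 93.4 CPM in Axin2+. The smooth muscle and pericyte list was lower without overlap for 11 of 12 genes and the stromal list for 9 of 11. Of the 12 T, B and NK cell genes 8 were lower without overlap. All 12 summed to 20.3 to 50.1 CPM in Axin2- and 4.00 to 26.4 CPM in Axin2+. Cd3d and Cd8a were at 0 counts in the Axin2+ libraries of mice 2 and 3. Cd4 went the other way, with a log2 fold change of 2.38 and overlapping groups (edgeR adjusted p 0.154). It passed only with DESeq2 (adjusted p 0.0368), and made up 21.0 of the 26.4 CPM in the Axin2+ library of mouse 1. Of 7 mesothelial markers tested, 5 lay above and Wt1 below without overlap, with a median log2 fold change of 2.88; Wt1 made up 138 to 184 of the 181 to 229 CPM in Axin2-, the Axin2+ sums were 196 to 537 CPM, and Calb2 was at 0 in every library. Within Axin2+ the highest sum was 5.61 times the lowest for macrophage markers, 1.44 times for epithelial markers and 1.02 times for replication genes. Within Axin2- it was 5.55, 1.45 and 1.05 times in turn, and 2.98 times for mitosis genes. A sum mostly follows its most abundant genes and says little of the replication genes of low level. The part of these cell types in the replication result was not tested.

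**Figure D5:**
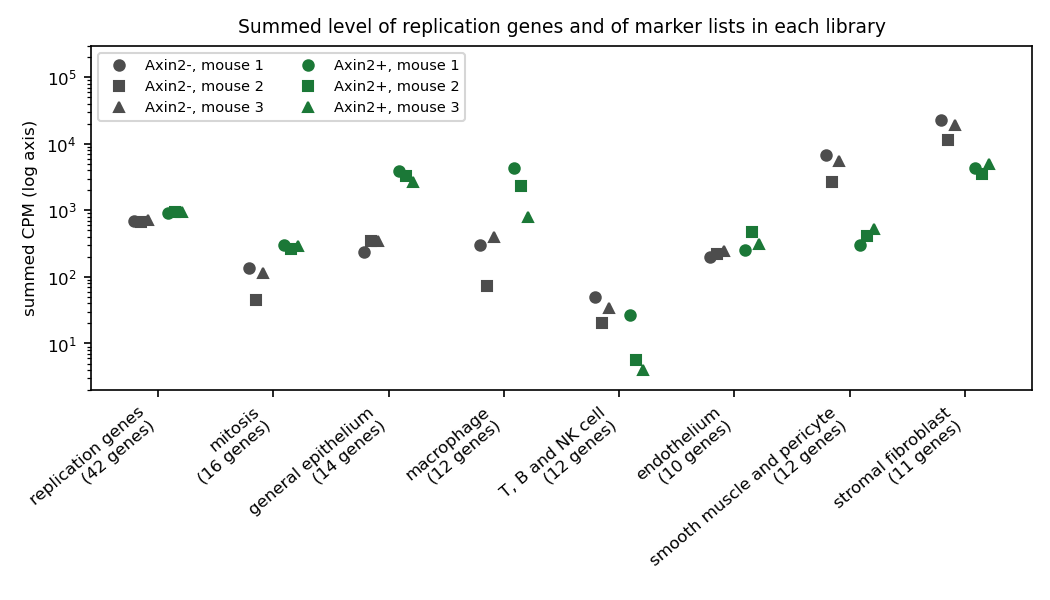
Summed level of the 42 replication genes and of 7 marker lists in each library (y axis, summed CPM, log axis; grey: Axin2-, green: Axin2+, shape: mouse). The replication sums lie at 680 to 716 CPM in Axin2- and 928 to 946 CPM in Axin2+. Macrophage sums run from 72.9 to 404 CPM in Axin2- and from 784 to 4403 CPM in Axin2+.

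In the authors' deposited table of the same comparison, all 42 genes are present among 15469 genes, and 11 of them have an FDR under 0.05 and a higher level in Axin2+. These are the same 11 genes, and the log2 fold changes of the authors' deposited table differ from those given here by at most 0.0104 for any of the 42.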

How the data were processed

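For the 6 libraries the authors deposited a table of raw gene counts on mm10. STAR 2.5.3a and featureCounts 1.5.3 stand in the submitters' processing notes, with bcl2fastq 2.20.0.422, StringTie 1.3.3 and edgeR 3.22.5. For annotation and strand, the setting was not given in the sources used here. The authors' deposited comparison table holds log2 fold changes, mean log2 CPM, an F statistic treated as a score, and p-values with FDR, per the file headers. A mapping summary by the authors gives percent of read pairs assigned to 1 feature, 29.26 to 38.86 per library.

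Here counts were tested in R 4.3.3 with edgeR 4.0.16 (filterByExpr, TMM, robust quasi-likelihood F test, Benjamini-Hochberg over 16896 genes, threshold 0.05); each SE was computed as the fold change over the root of F. TMM factors were 0.895 to 0.975 in Axin2- and 1.05 to 1.08 in Axin2+, and ribosomal RNA genes took 16.1 to 25.5 percent of the deposited counts. DESeq2 1.42.0, limma 3.58.1, other scalings and filters, the mouse as a block and leaving out each library were alternatives. The fit was also run on counts simulated gene by gene. These held no shift in cell types, so they do not test the fit for fractions that differ in cell types. The labels pair libraries by mouse, and paired deviations from the group mean correlated at 0.27, 0.01 and -0.07 across genes for mice 1, 2 and 3. Libraries of different mice correlated at -0.24 to 0.25, so matched libraries were not set apart as a group. Replicates of a fraction differed beyond sampling noise (chi-square per degree of freedom at least 53.9).

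Coordinates and lengths come from GENCODE M21 of GRCm38, and promoters from RefSeq, GRCm38.p6. Of the listed genes outside the 42, 3 were matched by an older symbol. By GENCODE, 13 of the 42 share exon bases with another protein-coding gene, 4 of them among the 11 that passed: Gins2, Chaf1a, Fen1 and Lig1.

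The 42 genes and the lists were chosen with earlier results of these data known. Library values are given for every replication gene that passed, and for the 2 with the smallest p in a role where fewer than 2 did; in each other pathway list up to 3 genes per direction with the smallest p are named, and in each marker list the most abundant ones were computed. Wt1 and Cdh5 are among these most abundant markers, though most of the others are not printed with values. Where they or genes outside these rules, such as Mcm4, Mcm5, Gins4, Pcna and Chaf1b, appear with values, they were chosen after their values were seen.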

Additional observations from a re-analysis of the deposited data

How the results depend on the processing

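Over 16 alternatives the number of replication genes higher in Axin2+ was 11 to 14 with other scalings, filters, tools or the block, and 8 to 11 when 1 library was left out; 0 were lower in any. Of the 11 genes, 8 passed in every alternative: Gins2, Hells, Mcm2, Mcm3, Mcm6, Rpa1, Tyms and Uhrf1. Library size alone added Cdt1, Chaf1b and Mcm5, DESeq2 added Chaf1b and Mcm5, and limma-voom added Chaf1b and Tk1. The median log2 fold change of the 42 was 0.53 with upper quartile scaling, 0.76 with library size only, and 0.46 to 0.67 with 1 library left out. For the 76 other pathway genes it was 0.11, 0.33 and 0.092 to 0.18 in turn, with 1 lower call under library size only, 8 higher calls with upper quartile scaling and with no filter, where Pold3 and Dctpp1 were lost, and with 1 library left out 5 to 9 higher and 0 to 2 lower calls. All marker lists together gave 42 higher calls and 31 lower, and 27 to 39 and 21 to 34 with 1 library left out. The median over all genes was -0.016 with DESeq2 size factors in edgeR, -0.054 with upper quartile scaling, 0.16 with library size only, -0.017 with DESeq2, -0.033 with no filter (21237 genes), -0.015 with ribosomal RNA genes left out and -0.019 to 0.021 with 1 library left out, where all genes gave 1491 to 2304 higher and 1053 to 1911 lower calls. With library size only these log2 fold changes turned positive: Orc6 0.093, Gins4 0.17, Rfc1 0.11 and Rfc4 0.070. Gins4 was at 0.0021 with no filter. With 1 library left out, Orc6 ran from -0.24 to 0.097, Gins4 from -0.083 to 0.098, Rfc1 from -0.10 to 0.019 and Rfc4 from -0.26 to 0.14. The cause of these shifts was not tested. With the mouse as a replicate block 11 replication genes passed, with Fen1 lost (edgeR adjusted p 0.0599) and Chaf1b gained (0.0456). Of all genes 12.3% were higher under the block. The block also lost Pole, Pold3, Tk2 and Dctpp1 and gained Mki67 (0.0442). Cdh5, at an edgeR adjusted p of 0.0559 without the block, passed as lower with the block (0.0095). Among the genes given with a value for each library, no further call changed. Depth and the spread of single libraries, which were not separated, leave the genes under 10 CPM with a median SE of 0.45.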
